A study of Homo sapiens with 2 samples.

Results

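MALAT1, NEAT1 and MEG3 are long noncoding RNAs (lncRNAs) that act in the nucleus. They were selected on measured values, because each was lower in M2BPGi-treated than in non-treated cells, and they are 3 of the 16424 genes listed. Their own differences are therefore a description and were not tested. Cap analysis of gene expression (CAGE), which reads the capped 5′ end of each transcript as a short tag, was applied to PLC/PRF/5, a human hepatoma line chosen by the study to represent poorly differentiated hepatocellular carcinoma. There was 1 library of non-treated cells (0 µg/ml M2BPGi), collected after 6 h in medium without the agent, and 1 library of cells given 3 µg/ml M2BPGi for 6 h. M2BPGi is a glycosylated form of Mac-2-binding protein used as a serum marker of liver fibrosis. With 1 library per condition, no difference has a replicate check. The libraries held 24040209 tags (non-treated) and 24862941 tags (M2BPGi-treated). Values are tags scaled to library size (CPM).

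MALAT1 is among the most abundant nuclear RNAs of mammalian cells and gathers at nuclear speckles, bodies rich in splicing factors. It has no poly(A) tail, since RNase P cuts its 3′ end, which is then protected by a triple helix. NEAT1 is the scaffold of paraspeckles, bodies that form on the transcript and hold RNA-binding proteins. MEG3 is expressed from the maternal chromosome at the imprinted DLK1-DIO3 locus and is often silenced in liver cancer.

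MALAT1 (ENSG00000251562) lies on the plus strand of chromosome 11 (65497688 to 65506516). Positions are those of GENCODE v29 on GRCh38, not of hg19, the build named in the submitters' processing notes. Its longest annotated transcript has 8708 nt in 1 exon. NEAT1 (ENSG00000245532) is on the same strand of chromosome 11, from 65422774 to 65445540, with a longest transcript of 22743 nt in 1 exon. Its short and long isoforms share a 5′ end, so that tags summed per gene cannot separate them. MEG3 (ENSG00000214548) is on the plus strand of chromosome 14, from 100779410 to 100861031, with 48 annotated transcripts and a longest one of 12990 nt in 7 exons. The 3 genes thus share the plus strand and a long annotated transcript, which the selection did not use.

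Promoters were taken from RefSeq (GRCh38.p14), from 250 bases before to 50 bases after each start, and 2 of the 3 genes matched. They are shown because these genes moved in the same direction, and capitals mark the motifs found. The upstream MALAT1 start is at chr11:65497488-65497787 and the downstream start at chr11:65498795-65499094. The first of 3 overlapping MEG3 windows is at chr14:100825858-100826157. All are on the plus strand.
MALAT1 upstream start: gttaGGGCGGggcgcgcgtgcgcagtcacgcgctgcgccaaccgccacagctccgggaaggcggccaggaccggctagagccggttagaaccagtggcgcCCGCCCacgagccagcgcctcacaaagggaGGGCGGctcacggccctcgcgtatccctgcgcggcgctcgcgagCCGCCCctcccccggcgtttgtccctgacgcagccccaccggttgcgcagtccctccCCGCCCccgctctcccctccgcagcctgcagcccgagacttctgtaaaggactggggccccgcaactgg
MALAT1 downstream start: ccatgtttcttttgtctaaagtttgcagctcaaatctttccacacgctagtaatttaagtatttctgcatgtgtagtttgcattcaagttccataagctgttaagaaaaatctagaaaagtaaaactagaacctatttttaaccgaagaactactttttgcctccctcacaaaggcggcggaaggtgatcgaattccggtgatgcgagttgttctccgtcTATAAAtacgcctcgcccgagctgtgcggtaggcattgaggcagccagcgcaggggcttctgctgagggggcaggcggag
MEG3: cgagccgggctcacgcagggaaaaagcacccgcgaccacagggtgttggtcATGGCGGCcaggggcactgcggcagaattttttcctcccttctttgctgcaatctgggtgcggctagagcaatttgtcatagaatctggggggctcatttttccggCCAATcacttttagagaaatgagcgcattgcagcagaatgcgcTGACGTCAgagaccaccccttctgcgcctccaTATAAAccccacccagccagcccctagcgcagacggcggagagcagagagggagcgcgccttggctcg
Exact matches were searched on both strands for 8 motifs, and no marked match overlapped another. The upstream MALAT1 promoter had a GC content of 73.7%, against a median of 58.7% over 35116 promoters, and held 5 GC boxes (GGGCGG), a motif found in 44.95% of promoters. The downstream MALAT1 promoter had a GC content of 46% and held a TATA box (TATAAA, 11.53% of promoters) beginning at position -30 from the start. The MEG3 window had a GC content of 59%. It held a TATA box at -18, a CCAAT box (CCAAT, 34.61%) at -93, a cAMP response element (TGACGTCA, 1.848%) at -50 and a YY1 core (ATGGCGGC, 2.996%) at -199. These positions depend on the start taken, and from the other overlapping starts the same TATA box is at -28 or -42. The letters of the NRF1 (1.239%), ETS (GGAAGT, 22.79%) and E-box (CACGTG, 7.256%) motifs were in none of these 3 windows. A match describes letters and not a bound site.

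The level of MALAT1 was 7357 CPM in the non-treated library (176858 tags) and 4042 CPM in the M2BPGi-treated one (100490 tags). The treated library thus held 54.9% of the non-treated level. The log2 ratio was -0.86 after adding a pseudocount of 1 CPM, with a 95% Clopper-Pearson interval of the tag ratio of -0.88 to -0.85, and without a pseudocount MALAT1 was 1.82-fold lower. These intervals cover counting error only. In bulk RNA, fewer cells with a transcript and less of it per cell cannot be told apart.

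For NEAT1, 6528 tags (272 CPM) were counted without and 3221 tags (129.6 CPM) with M2BPGi. This was 47.7% of the non-treated level, a log2 ratio of -1.06 (interval -1.13 to -1.01), or 2.10-fold lower without a pseudocount. MEG3 was the least abundant of the 3, with 397 tags (16.5 CPM) without and 174 tags (7 CPM) with M2BPGi. From here on, a pair of CPM values gives the non-treated library before the treated one. It was at 42.4% of the non-treated level, with a log2 ratio of -1.13, or -1.24 without a pseudocount (interval -1.50 to -0.98). The interval of MALAT1 overlapped neither of the others, whereas those of NEAT1 and MEG3 overlapped, so the order of these 2 genes was not resolved at this depth.

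**Figure D1:**
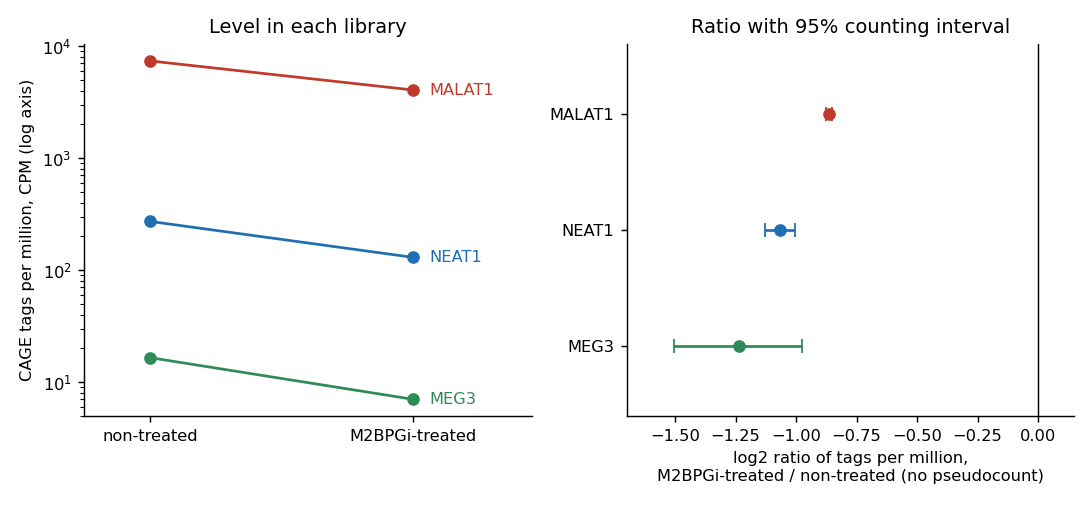
The left panel plots the CPM of each lncRNA in the 2 libraries on a log axis, and the right panel plots the log2 ratio of its CPM without a pseudocount, with 95% Clopper-Pearson intervals. All 3 are lower in M2BPGi-treated cells, MALAT1 from 7357 to 4042, NEAT1 from 272 to 129.6 and MEG3 from 16.5 to 7 CPM, and the interval widens as the number of tags falls.

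All 3 lncRNAs passed the filter of a mean of at least 1 CPM and were at least 1.5-fold lower, as were 4.04% of the 13724 genes tested (555 genes). In the other direction, 1.6% (219 genes) were at least 1.5-fold higher. By any amount, 57% of the genes were lower. Since the 3 genes were selected on this contrast, nothing is read from their count. Of the genes past the fold, 28.3% were higher, and this share was 42% after rescaling the libraries to a median log2 ratio of 0 and 39.6% with edgeR's TMM factors. From the lowest log2 ratio upward, MEG3 ranked 36, NEAT1 49 and MALAT1 113 of the 13724 genes.

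**Figure D2:**
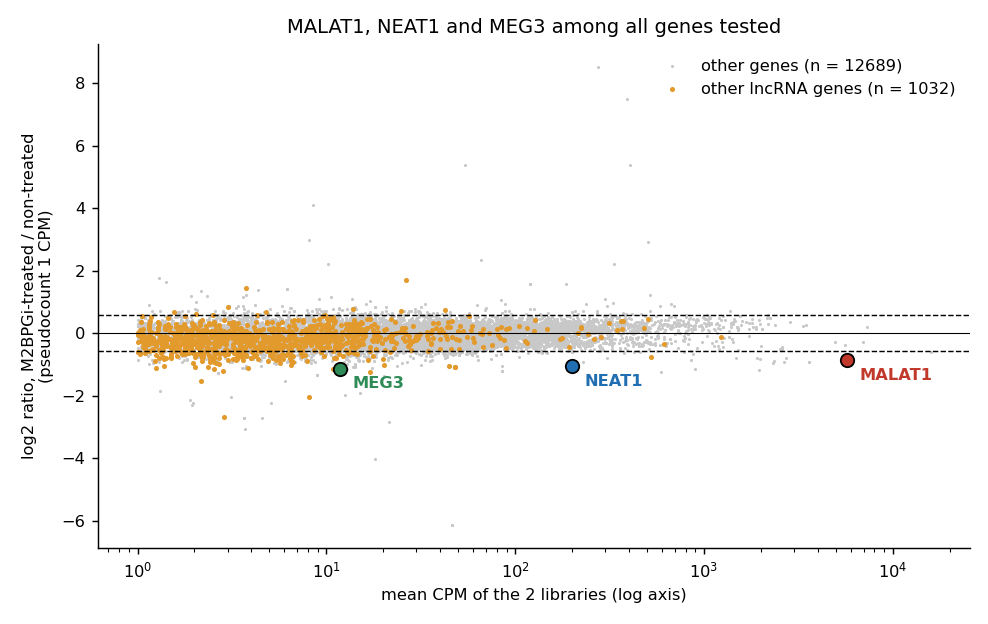
Each point is a gene, with the mean CPM of the 2 libraries on a log x axis and the log2 ratio on the y axis, and dashed lines mark a 1.5-fold difference. MEG3 (-1.13), NEAT1 (-1.06) and MALAT1 (-0.86) lie under the lower line at low, middle and high abundance, beside 1032 other lncRNA genes in orange and the other genes in grey.

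Because 1 capped transcript gives 1 tag at its 5′ end, CAGE levels can be compared between genes without dividing by length. By CPM, MALAT1 ranked 3 among all listed genes in non-treated cells and 6 in M2BPGi-treated cells. NEAT1 went from rank 588 to 1511 and MEG3 from rank 7836 to 10312. Among lncRNA genes, MALAT1 kept rank 1, while NEAT1 went from rank 14 to 23 and MEG3 from 156 to 358. MALAT1 was 27.1 times the level of NEAT1 in non-treated and 31.2 times in M2BPGi-treated cells, and NEAT1 was 16.4 and 18.5 times the level of MEG3.

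MALAT1 alone made up 29.3% of the CPM of all listed lncRNA genes in non-treated cells and 19.5% in M2BPGi-treated cells. As a share of the library it was 0.736% and 0.404%. The lncRNA class summed to 25150.4 and 20685 CPM. Without the 3 genes it summed to 17506 and 16507 CPM, so that MALAT1 carried most of the difference of its class. Among all genes, MALAT1 had the second largest loss in CPM, after MTRNR2L2, a nuclear gene that resembles mitochondrial ribosomal RNA, with 19144 and 12655 CPM. The next losses, named after their values were seen, were at MTATP6P1 and MTATP8P1, nuclear pseudogenes of mitochondrial genes that share the same values of 4701 and 2483 CPM. These 3 genes were picked by their losses and describe no wider group, and their part in the result was not tested.

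Among the other lncRNA genes, the lower values were most frequent at low abundance. Of 1032 with a mean of at least 1 CPM, 748 were lower and 281 higher, the median log2 ratio was -0.18, and 13.7% were at least 1.5-fold lower, against 2.47% of 11316 protein-coding genes. Of 278 with a mean of at least 10 CPM, 19 were at least 1.5-fold lower, with a median of -0.08, beside 2.33% and a median of -0.03 over all genes in that range. Of 26 with a mean of at least 100 CPM, 1 was past that fold, and the median was 0.09, beside 1.82% and a median of 0.10 over all genes in that range. This gene was SCARNA17, named after its value was seen, which encodes a small RNA of Cajal bodies and had 653 and 389 CPM. The median thus went up with abundance over all genes as well as in the lncRNA class, and MALAT1 and NEAT1 lie in the highest of these ranges.

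Among the 281 lncRNA genes with a mean of at least 10 CPM, MEG3 had the third lowest log2 ratio, NEAT1 ranked 6 and MALAT1 ranked 9. The others up to MALAT1, named after their values were seen, included RP11-262H14.3 (24.5 and 9.69 CPM), ADAMTS9-AS2 and LINC00472 (60.6 and 28.7 CPM). The rest were ARHGAP11B (27.4 and 12.9 CPM), and AC068491.1 and AC017002.2, which share the values 65.5 and 30.3 CPM. The class is that of GENCODE v29, which lists ARHGAP11B as a processed transcript, and CAGE does not show whether a gene encodes a protein. In that range of abundance, 4 lncRNA genes were at least 1.5-fold higher, beside 135 of all 9464 genes, a like share. Among the 4 was JPX, an activator of X inactivation, with 18.7 and 31.0 CPM.

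Transcript length also went with the log2 ratio. Among protein-coding genes with a mean of at least 10 CPM, the median was 0.17 for 283 genes with a longest transcript under 1000 nt and -0.14 for 692 genes of 8000 nt or more. In the latter group, 508 genes were lower and 184 higher, and 2.31% were at least 1.5-fold lower. The 3 lncRNAs, selected for lower values, belong to this length range, and all lie under the lower quartile of these genes, -0.31. In the same ranges of length and abundance, 6 other lncRNA genes had a median of 0.04, of which 3 were lower and 3 higher. The part of transcript length in the result was not tested.

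**Figure D3:**
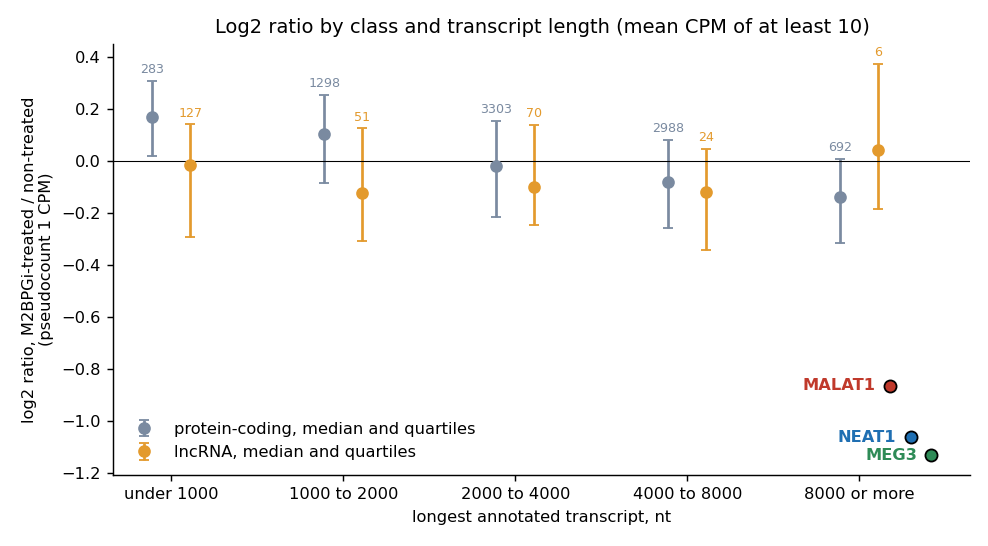
Points are the median log2 ratio of protein-coding genes (grey) and other lncRNA genes (orange) with a mean of at least 10 CPM by the length of the longest annotated transcript, bars are the quartiles and small digits the number of genes. The median of protein-coding genes goes from 0.17 under 1000 nt to -0.14 at 8000 nt or more, and MALAT1, NEAT1 and MEG3 lie at -0.86, -1.06 and -1.13.

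The mRNAs of paraspeckle proteins, which assemble on NEAT1, were set beside it. Of 33 measured, 23 were lower and 10 higher and 0 were past 1.5-fold, beside 4.04% lower and 1.6% higher by that fold over all genes tested. The median log2 ratio was -0.09, beside -0.05 over all genes tested. Here and for the lists that follow, lowest and highest are among genes with a mean of at least 10 CPM. The lowest were CPSF7 (-0.41), a cleavage factor subunit, HNRNPH1 (-0.31), a splicing regulator, and CIRBP (-0.30), a cold-inducible RNA-binding protein. The highest were NUDT21 (0.35), the partner of CPSF7 in the same cleavage factor, WTAP (0.21), a subunit of the m6A methyltransferase, and DAZAP1 (0.18). The core proteins SFPQ, NONO and PSPC1, named after their values were seen, had log2 ratios of -0.10, -0.19 and -0.26. SFPQ had 202 and 189 CPM, and NONO had 127 and 111.05 CPM. NEAT1 lay below each of these mRNAs, but it was selected for a lower value, so nothing is read from this.

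The mRNAs of nuclear speckle proteins, the neighbours of MALAT1 in the nucleus, had a median of -0.06 over 38 genes, with 26 lower and 12 higher. At least 1.5-fold lower were 3 of the 38, and 0 were that much higher, beside 4.04% and 1.6% over all genes tested. ARGLU1, a splicing and transcription cofactor, had 144 and 91.3 CPM (-0.65). CLK4, a kinase of SR splicing factors, had 17.6 and 11.3 CPM (-0.60), and PRPF4B, a kinase of the spliceosome, had 160 and 105 CPM (-0.60). SON, the most abundant of these mRNAs, which encodes a core protein of the speckle, had 625 and 480.1 CPM (-0.38). The highest were SNRPD1 (0.32) and SF3A1 (0.31), which belong to spliceosomal particles, and THRAP3 (0.25).

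A list of factors that cut the MALAT1 3′ end, bind its triple helix or form the m6A methyltransferase had a median of 0.03. Of its 17 entries, 10 were higher. Here RPPH1 and RPP14 count as 2 entries each, because each has 2 identifiers with identical values. RPPH1, the RNA subunit of RNase P, had 11.9 and 40.9 CPM, a log2 ratio of 1.70 (interval 1.59 to 1.97). Among mRNAs for protein subunits of RNase P, RPP21 was highest, with 94.8 and 114 CPM (0.26). METTL14 (-0.36) and METTL3 (-0.24), which form the m6A methyltransferase, and ELAC2 (-0.18), the tRNA 3′ endonuclease, were lowest. METTL16, a protein that binds the MALAT1 triple helix, was named after its value was seen and had 17.5 and 16.8 CPM (-0.06). RN7SL1 and RN7SL2, the RNAs of the signal recognition particle, were higher in the treated library as well (1.58 each). CAGE counts capped 5′ ends, so the tags of RPPH1 need not follow its total level. No relation between RPPH1 and MALAT1 was tested.

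The nuclear RNA exosome, which degrades nuclear RNAs from the 3′ end, had a median of 0.07 over 18 genes, with 7 lower and 11 higher. ZFC3H1, which connects polyadenylated nuclear RNAs to the exosome, had 20.3 and 12.8 CPM (-0.63) and was the 1 member of 18 past 1.5-fold, beside 4.04% lower and 1.6% higher over all genes tested. SKIV2L2 (-0.17), the helicase, and EXOSC10 (-0.17), a nuclease, were next, and EXOSC8 (0.33), EXOSC5 (0.28) and EXOSC7 (0.24), subunits of the ring, were highest with a mean of at least 10 CPM.

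Other lncRNAs with nuclear roles did not move together. Of 26 on the list, 10 were listed, in 11 entries because TERC has 2 identifiers, with 6 entries lower and 5 higher. The median was -0.26, but it was -0.12 with 1 row per symbol and 0.02 among those with a mean of at least 10 CPM. FTX, named after its value was seen, had 6.70 and 3.74 CPM (-0.70) and JPX 18.7 and 31.0 CPM (0.70), and both belong to the X inactivation centre. They were the 2 entries past 1.5-fold, 1 in each direction, beside 4.04% lower and 1.6% higher over all genes tested. TERC, the RNA of telomerase, had 223 and 165 CPM (-0.43), and TUG1 had 17.5 and 13.6 CPM (-0.34). HOXA-AS2 (0.11), CRNDE (0.10) and HOTAIRM1 (0.02) were close to 0.

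Mainly cytoplasmic lncRNAs had a median of 0.14, with 7 of 17 lower and 10 higher. GAS5, a snoRNA host that binds the glucocorticoid receptor, had 17.4 and 10.7 CPM (-0.64) and was the 1 member of 17 past 1.5-fold, beside 4.04% lower over all genes tested and 13.7% over other lncRNA genes with a mean of at least 1 CPM. SNHG12 (-0.33) and SNHG1 (-0.18) were next. ZFAS1 (424 and 582 CPM, 0.46), SNHG16 (0.42) and SNHG15 (0.39), which are snoRNA hosts as well, were highest. MALAT1, NEAT1 and MEG3 had lower log2 ratios than each of these nuclear and cytoplasmic lncRNAs.

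Small and structural RNAs, not all of them nuclear, spread widely, with 12 of 21 entries lower, 9 higher and a median of -0.12. RNU11, TERC, RNU4ATAC, SCARNA2, RNU12 and RPPH1 count as 2 entries each with identical values, and with 1 row per symbol the median was -0.01. At least 1.5-fold lower were 2 entries, both of RNU11, a minor spliceosomal RNA named after its value was seen (3.04 and 1.41 CPM, -0.75), and 6 were that much higher, beside 4.04% and 1.6% over all genes tested. The higher entries included RPPH1, RN7SL1 (59.2 and 179 CPM, 1.58) and RN7SL2 (93.3 and 280.1 CPM, 1.58), the RNAs of the signal recognition particle. RNU4-2, a spliceosomal RNA, had 25.6 and 17.3 CPM (-0.54), followed by TERC and RNU5B-1 (-0.42).

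At the imprinted locus of MEG3, DLK1 was the 1 gene of 27 on the list that was listed besides MEG3. DLK1, the paternally expressed Notch ligand of the locus, had 18.1 and 16.4 CPM (interval -0.35 to 0.05), so that no difference was detectable at this depth. DLK1 and MEG3 were thus at similar levels in non-treated cells, and MEG3 was lower than DLK1 in M2BPGi-treated cells. Of 20 measured genes on a list of imprinted genes from across the genome, which also holds DLK1, 10 were lower and 10 higher with a median of 0.00, and 0 were past 1.5-fold. ZDBF2 (-0.54), BLCAP (-0.50) and SLC22A18 (-0.36) were lowest, and GRB10 (0.44), SNRPN (0.35) and SNURF (0.34) were highest. H19, another maternally expressed lncRNA, was named after its values were seen and had 281 and 350 CPM (0.31).

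Polycomb repressive complex 2, which has been reported to bind MEG3, had a median of 0.01 over 11 genes, with 5 lower and 6 higher and 0 past 1.5-fold. PHF1 (-0.32), JARID2 (-0.21) and EZH2 (-0.16), the methyltransferase, were lowest with a mean of at least 10 CPM. EED (0.30), PHF19 (0.24) and RBBP7 (0.10) were highest. Genes of DNA methylation and imprint maintenance had a median of -0.03 over 9 genes, which was 0.02 with either rescaling of the libraries. DNMT1, the maintenance methyltransferase, had 96.1 and 88 CPM (-0.13). ZNF445 and UHRF1 were at -0.03, CTCF was at 0.01 and TRIM28 at 0.07. None of these imprinted, Polycomb and methylation genes was past 1.5-fold, beside 4.04% lower and 1.6% higher over all genes tested, so that 0 in lists of this size is near the background.

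Known regulators of NEAT1 transcription had a median of 0.03 over 9 genes, with 3 lower and 6 higher. At least 1.5-fold higher was 1 of the 9, and 0 were that much lower, beside 1.6% and 4.04% over all genes tested. HIF1A (0.17), a hypoxia factor, was higher, with 112 and 126 CPM. For EPAS1 (0.13), also a hypoxia factor, the interval was -0.009 to 0.276, so that no difference was detectable at this depth. ARNT (-0.11), MDM2 (-0.09) and BRCA1 (-0.08) were lowest, and their intervals included 0 as well. Since NEAT1 was selected for a lower value, nothing is read from its place below the regulators named.

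Along chromosome 11, NEAT1 and MALAT1 are separated by 1 gene with a mean of at least 1 CPM, the pseudogene AP000769.1, which had 119 and 104 CPM (-0.19, interval -0.27 to -0.12). Around MALAT1, 9 neighbours other than NEAT1 had a median of -0.19, with 7 lower, 2 higher and 0 past 1.5-fold. The lowest was AP000769.7 (-0.53), a minus-strand lincRNA with 1.71 and 0.88 CPM. The 9 neighbours of NEAT1 other than MALAT1 had a median of -0.24, with 8 lower and 0 past 1.5-fold. FRMD8, the nearest upstream, had 28.1 and 19.8 CPM (-0.48), and SLC25A45 had 8.86 and 6.31 CPM (-0.43). SSSCA1, downstream of MALAT1, was highest (0.22), with 49.7 and 58.2 CPM. Over all genes tested, 4.04% were lower and 1.6% higher by that fold, so that 0 of 9 is near the background. The count also rests on the pseudocount, since the CPM of AP000769.7 itself differed by more than 1.5-fold.

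Around MEG3, 10 neighbours had a median of -0.14, with 7 lower and 3 higher. WARS, the tryptophanyl-tRNA synthetase, had 51.3 and 87.2 CPM (0.75) and was the 1 neighbour of 10 at least 1.5-fold higher, and 0 were that much lower, beside 1.6% and 4.04% over all genes tested. DYNC1H1, the dynein heavy chain, had 165 and 120.7 CPM (-0.45) and SLC25A29 15.3 and 10.98 CPM (-0.44). RP11-796G6.2, the nearest downstream, had 2.58 and 2.41 CPM (-0.07). HSP90AA1, a chaperone, had 1250 and 1056 CPM (-0.24).

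**Figure D4:**
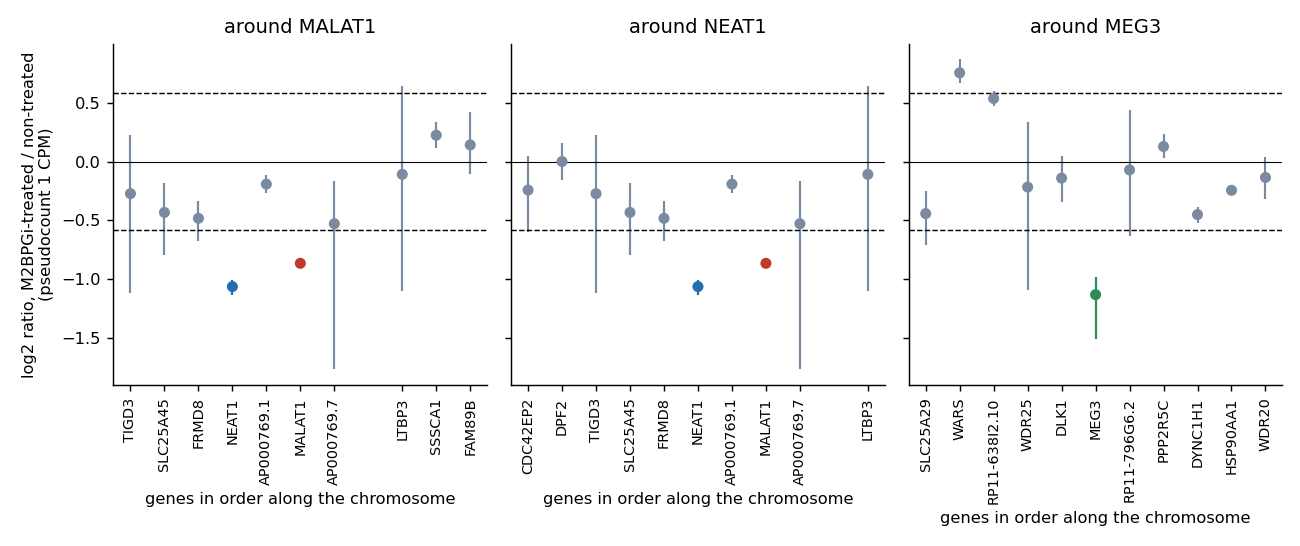
Points are the log2 ratio (pseudocount of 1 CPM) of each lncRNA and of most of the 5 nearest genes on each side with a mean of at least 1 CPM, in gene order, lines are 95% intervals of the tag ratio without a pseudocount, and dashed lines mark 1.5-fold. NEAT1 (-1.06), MALAT1 (-0.86) and MEG3 (-1.13) lie under the lower line, and WARS (0.75) lies over the upper one.

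The genes nearest to each lncRNA by Euclidean distance of log2(CPM + 1) over the 2 libraries show what else had a like pair of levels. For NEAT1 they were RP11-461G12.2, a pseudogene with 261 and 137 CPM, RNU1-2, a U1 spliceosomal RNA gene with 299 and 156 CPM, and SLC12A2, an ion cotransporter with 230 and 153 CPM. For MEG3 they were ADAMTS9-AS2, an antisense lncRNA with 15.4 and 6.40 CPM, APBB3, an adaptor protein gene with 18.1 and 7.64 CPM, and HIVEP2, a transcription factor gene with 14.2 and 7.20 CPM. For MALAT1 they were MTRNR2L12 (6284 and 4888 CPM), NTS, the neurotensin gene (5410 and 4460 CPM), and CLU, the clusterin gene (7636 and 6256 CPM). At the level of MALAT1 the nearest genes were thus lower by less, with log2 ratios of -0.36, -0.28 and -0.29.

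Liver and hepatoma markers were all listed, and KRT18, a keratin of hepatocytes, was the most abundant by the mean of the 2 libraries, with 1250 and 1592 CPM (0.35). FGG, a fibrinogen gene named after its value was seen, was above it in non-treated cells, with 1402 and 987 CPM (-0.51). AFP, a marker of hepatoma, had 695 and 566 CPM. ALB, the albumin gene, was low, with 8.82 and 7.04 CPM. The 19 markers summed to 7291 and 6194 CPM, with 12 lower, 7 higher and a median of -0.29. FGB (950.03 and 623 CPM, -0.61), and TF, named after its value was seen (6.61 and 4.02 CPM, -0.60), were the 2 of 19 at least 1.5-fold lower, beside 4.04% over all genes tested. FGA (-0.56) and SERPINA1 (-0.56) followed. FOXA2 (0.49) and HNF4A (0.16), hepatocyte transcription factors, were higher. The part of the liver markers in the values of MALAT1, NEAT1 and MEG3 was not tested.

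Of 9 stellate cell and fibroblast markers, 3 were listed, with a sum of 5.45 and 4.42 CPM, and COL3A1 was the most abundant (4.53 and 3.42 CPM). Of 9 macrophage and leukocyte markers, 5 were listed, with a sum of 53.2 and 49.7 CPM. LYZ was the most abundant (32.1 and 29.2 CPM), CD68 had 21.2 and 20.5 CPM, and the defining markers PTPRC and CSF1R were at 0 in both libraries. Of 6 endothelial markers, ENG was listed, at 0 in both. At these depths, 0 tags is compatible with a level of at most 0.125 CPM without and 0.121 CPM with M2BPGi.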

How the data were processed

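CAGE libraries of PLC/PRF/5 cells, 1 non-treated and 1 M2BPGi-treated, were analysed. Ribosomal tags were removed by the authors, who mapped the rest (BWA and HISAT2 on hg19 per the submitters' processing notes, whereas the methods name a mouse build), clustered 5′ ends with CAGEr and deposited CPM per gene, rounded to 2 decimals. The rule assigning tags to genes is not given in the sources used here, so genes with near-identical copies or overlapping neighbours are uncertain. Tags were read back from the CPM steps, and 100% of values above 0 were whole within the rounding. Log2 ratios used a pseudocount of 1 CPM, so that differences of scarce RNAs are understated, over 13724 genes with a mean of at least 1 CPM. Members and lists were chosen with earlier results of these data known.

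Named genes were the 3 lncRNAs, the 3 highest and 3 lowest members of each list with a mean of at least 10 CPM, the 3 genes nearest in level and the 5 nearest genes on each side, and some genes that this rule selects are not reported here. Gene classes, lengths and order came from GENCODE v29, which matched 15781 of 16424 identifiers. Alternatives were pseudocounts of 0.1 and 5 CPM, a mean of at least 10 CPM, no filter, a fold of 2, 1 row per symbol, rescaling to a median log2 ratio of 0 and TMM factors. An exact test of edgeR on the tags, with an assumed coefficient of variation, was added after the data were seen. Python 3.11.15, numpy 2.4.6, pandas 2.3.3, scipy 1.17.1, matplotlib 3.10.9, R 4.3.3 and edgeR 4.0.16 were used, and the steps were tested on simulated data.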

Additional observations from a re-analysis of the deposited data

How the results depend on the processing

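MALAT1, NEAT1 and MEG3 were lower with both other pseudocounts, with rescaling and with TMM factors, the alternatives run for them. Rescaling to a median log2 ratio of 0 and TMM factors each gave MALAT1 a log2 ratio of -0.81, beyond its narrow counting interval, and a pseudocount of 5 CPM gave MEG3 -0.84. The genes at least 1.5-fold lower and higher numbered 856 and 336 with a pseudocount of 0.1 CPM, 164 and 91 with 5 CPM, 223 and 135 with a mean of at least 10 CPM, where fewer genes were tested, and 59 and 33 with a fold of 2. Of 84 list medians under an alternative, 4 changed sign. The median of DNA methylation and imprint maintenance genes became 0.0152 (TMM factors) and 0.0196 (rescaling). With a mean of at least 10 CPM, that of imprinted genes across the genome became -0.0182 and that of other nuclear lncRNAs 0.0209. The median of small and structural RNAs was -0.0121 with 1 row per symbol, -0.067 with TMM factors and -0.0662 with rescaling. The cause was not tested where the construction of the alternative does not give it. The exact test of edgeR, added after the data were seen, called 39 genes at an assumed coefficient of variation of 0.2, 289 at 0.1 and 19 at 0.4, and it compares the libraries, not the conditions. No paired analysis was possible because there was 1 library in each condition, so that neither can be left out. The depth limits MEG3 most, with 174 tags in M2BPGi-treated cells.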
